A study of Mus musculus with 7 samples.

Results

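The genes described here are 10 genes of iron uptake, storage and export, chosen by name as the rows of the count table whose gene symbol was Tfrc, Steap3, Slc11a2, Slc11a1, Fth1, Ftl1, Ncoa4, Slc40a1, Ireb2 or Aco1. Each symbol matched 1 row, so that 10 of the 57180 rows were used, and all 10 were among the 15838 genes with enough counts to be tested. RNA was sequenced in bulk from regulatory T (Treg) cells, CD4 T cells whose identity is set by the transcription factor FOXP3 and which hold other immune cells in check. They came from tumours of B16-F0, a mouse melanoma line grown in mice, and were sorted into a FOXP3-low population (n = 4 libraries) and a FOXP3-high population (n = 3 libraries). All mice, in both groups, were Foxp3-Cre-YFP animals, in which Cre recombinase and the yellow fluorescent protein are made under the Foxp3 gene, and the genotype is labelled WT throughout. The labels give no treatment, age, gate or pooling of animals, and do not say whether libraries of a group came from separate mice. The p-values therefore measure only the spread between these libraries, which may be technical.

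Cells take up iron as transferrin bound to the transferrin receptor, reduce it in the endosome, pass it to the cytosol through a metal transporter, store the surplus in ferritin and export it through ferroportin. The mRNAs of the transferrin receptor, the ferritin chains and ferroportin carry iron-responsive elements, short hairpins to which the iron regulatory proteins bind when iron is scarce. Binding in the 5′ untranslated region (UTR) blocks translation, and binding in the 3′ UTR stabilises the mRNA. Dividing T cells need iron for DNA synthesis and respiration, and macrophages recycle iron and keep it from microbes.

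The hairpins are shown because they divide the 10 genes into those with an element before the coding sequence, those with one after it and those without a match. The search asked for an unpaired C, 5 stem bases, the loop CAGTGN (N is any base) and 5 bases that pair with the stem, with G-T pairs allowed, on the sense strand of GENCODE M21 coding transcripts. The unpaired C and the 6 loop bases are in capitals, and 6 bases are shown on either side of the match. Of the 10 genes, 4 had such a match in a UTR, against 0.731% of 21901 coding genes searched. These 4 are the genes already described above as carrying the element, so the comparison of shares tests nothing.
Fth1, 5′ UTR: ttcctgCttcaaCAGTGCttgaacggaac
Ftl1, 5′ UTR: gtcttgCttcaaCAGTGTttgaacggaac
Slc40a1, 5′ UTR: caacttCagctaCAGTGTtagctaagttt
Tfrc, 3′ UTR, site starting at base 3321 of the transcript: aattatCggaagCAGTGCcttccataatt
Tfrc, 3′ UTR, base 3700: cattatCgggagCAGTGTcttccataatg
Tfrc, 3′ UTR, base 3765: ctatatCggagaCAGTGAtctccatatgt
Tfrc, 3′ UTR, base 3812: aattatCgggaaCAGTGTttcccataatt
Slc11a2, 3′ UTR, with 4 of 5 stem pairs: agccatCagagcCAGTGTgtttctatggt
The match began at base 93 of the Fth1 transcript, 84 of Ftl1 and 96 of Slc40a1. The Slc11a2 site, in 1 of its transcripts, entered only when 4 stem pairs were enough, a rule that 4.9% of coding genes met in a UTR. The other 5 genes had no UTR match under either rule. A match is a description of the sequence, and the counts, which are per gene, do not separate transcripts with and without an element.

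Of the 10 genes, 6 were lower in FOXP3-high, 0 were higher and 4 did not pass (edgeR's quasi-likelihood test, Benjamini-Hochberg adjusted p under 0.05 over all genes). At an unadjusted p under 0.05 edgeR also gave 0 higher, as did DESeq2 and limma-voom. The 6 were the transferrin receptor Tfrc, the phagosomal transporter Slc11a1, both ferritin chains Fth1 and Ftl1, the ferritin receptor Ncoa4 and the exporter Slc40a1. In all genes tested, 46.5% were called, 24.6% lower and 21.8% higher, so that calls in general were frequent. The same 6 genes had groups that did not overlap, with all FOXP3-high libraries below all FOXP3-low libraries, which held for 26.8% of genes tested (23.9% were separated the other way, 50.7% in either direction). The median log2 fold change (FOXP3-high minus FOXP3-low) of the 10 genes was -0.57, against 0.012 over all genes tested.

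**Figure D1:**
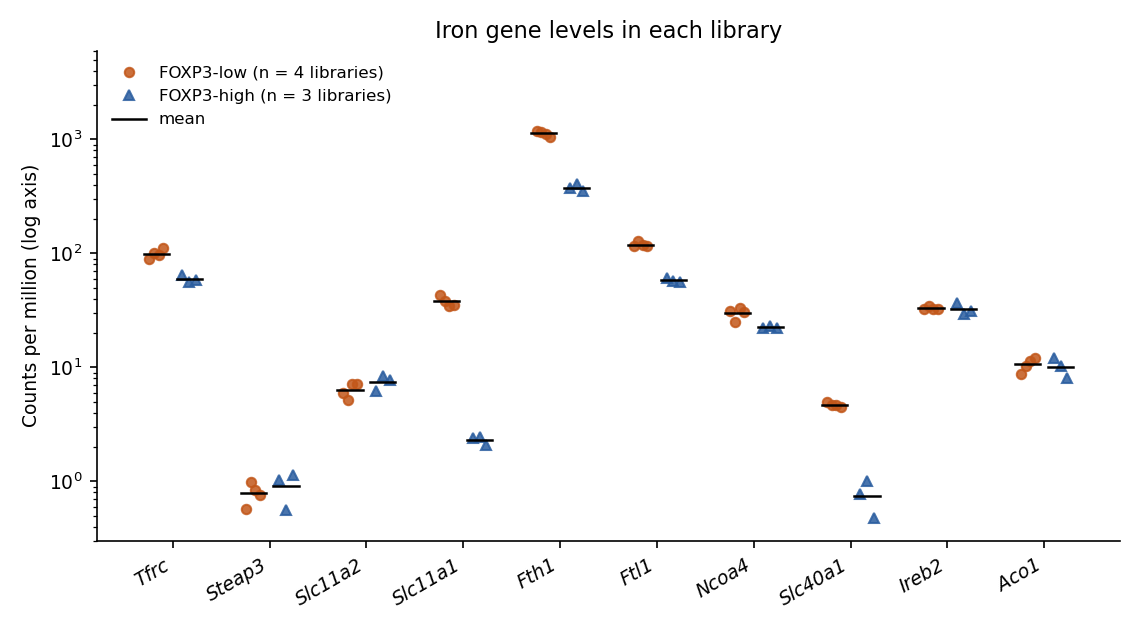
Level of each of the 10 genes in CPM (log axis) in the 4 FOXP3-low libraries (circles) and 3 FOXP3-high libraries (triangles), with the mean as a bar. Both ferritin chains, Tfrc, Slc11a1, Ncoa4 and Slc40a1 separate the groups, while Steap3, Slc11a2, Ireb2 and Aco1 overlap.

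Library totals ran from 9048771 to 14546999 counts. A level in CPM is the count scaled to the library size after TMM normalization, and 1 CPM stood for 8.98 to 14.3 counts. Foxp3 itself was at 357 ± 44.3 CPM (SD, n = 4) in FOXP3-low and 698 ± 95.4 CPM (SD, n = 3) in FOXP3-high, as the labels have it, and does not test the comparison. Markers of other cells differed between the sorted populations. Of 17 tested macrophage and monocyte genes 15 were lower and 1 higher in FOXP3-high, and their summed level was 2398 to 2939 CPM in FOXP3-low against 751 to 776 CPM in FOXP3-high. Most of the second range was Ccr2, a chemokine receptor that T cells also express. Without Ccr2, a choice made after its values were seen, the sums were 2178 to 2709 and 248 to 352 CPM. All 18 genes of that list had counts in at least 1 FOXP3-high library, and among the most abundant, Apoe, a lipid carrier, was at 770 and 204 CPM and Lyz2, lysozyme of phagocytes, at 553 and 28 CPM. Melanoma and melanocyte genes were higher in FOXP3-high in 8 of 8 (3221 to 4427 CPM summed, against 1305 to 2356), or in 5 of 8 with the libraries scaled to T cell genes, and proliferation genes were lower in 8 of 8 (1025 to 1188 CPM summed, against 4773 to 5167). T cell genes marked both populations, with 16 of 17 higher in FOXP3-high, against 21.8% of all genes tested. Cd2, an adhesion receptor, was at 688 and 1090 CPM and Cd4, the helper T cell coreceptor, at 522 and 681 CPM (log2 fold change 0.38, or -0.14 with the libraries scaled to T cell genes). The 17 T cell genes, Cd4 among them, are the genes used for that scaling. Their values under it (4 higher and 6 lower) are therefore centred by construction and test nothing. In bulk RNA, fewer cells of a type and less RNA per cell cannot be told apart.

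Tfrc encodes the transferrin receptor, the main route of iron into dividing cells (ENSMUSG00000022797, GRCm39 chromosome 16, 32427738 to 32451608, plus strand). Tfrc stood at 89.6, 101, 97 and 111 CPM in FOXP3-low replicates 1 to 4 and at 64.9, 56.1 and 59 CPM in FOXP3-high replicates 1 to 3. All FOXP3-high libraries lay below the FOXP3-low libraries. The mean went from 99.7 ± 8.8 CPM (SD, n = 4) to 60 ± 4.49 CPM (SD, n = 3), 1.66-fold lower (log2 fold change -0.73 ± 0.0848 SE, edgeR adjusted p = 9.04e-05). The proliferation genes, which moved the same way, included Mki67, a proliferation marker, at 2880 and 588 CPM, and Top2a, which untangles replicated DNA, at 1382 and 299 CPM. The erythroid genes, whose cells are rich in this receptor, were sparse in both groups, at 14.3 to 26.4 CPM summed in FOXP3-low against 14.5 to 15.9 CPM in FOXP3-high. Of 8 erythroid genes listed 4 had enough counts to be tested, and 0 passed with edgeR, DESeq2 or limma-voom (1 was lower at an unadjusted edgeR p under 0.05, and 3 were lower with T cell gene scaling). The most abundant, the globins Hbb-bs and Hba-a1, were at 11.8 and 8.99 CPM and at 5.72 and 4.13 CPM. The part of proliferation in the Tfrc difference was not tested.

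Steap3, the endosomal reductase that prepares transferrin iron for transport, was close to the detection limit (ENSMUSG00000026389, chromosome 1, 120118487 to 120200435, minus strand). Its counts were 7, 12, 12 and 9 in FOXP3-low and 12, 5 and 12 in FOXP3-high. The groups overlapped (0.785 ± 0.171 CPM, SD, n = 4, and 0.907 ± 0.308 CPM, SD, n = 3), and with a log2 fold change of 0.22 ± 0.39 SE (edgeR adjusted p = 0.68) a difference was not detectable at this depth.

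The paralogous metal transporters Slc11a1 and Slc11a2 differed from each other. Slc11a2 encodes DMT1, which moves ferrous iron out of the endosome in most cells (ENSMUSG00000023030, chromosome 15, 100285779 to 100322953, minus strand). It stood at 6.01, 5.12, 7.15 and 7.19 CPM in FOXP3-low and 6.19, 8.46 and 7.74 CPM in FOXP3-high. The groups overlapped, and the log2 fold change of 0.22 ± 0.19 SE did not pass (edgeR adjusted p = 0.36). Gm5475, on the opposite strand, held 11.4% as many counts as Slc11a2. Whether counting used the strand is not stated in the labels.

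Slc11a1 encodes NRAMP1, a transporter of the phagosome membrane found in macrophages and neutrophils (ENSMUSG00000026177, chromosome 1, 74414354 to 74424914, plus strand). It stood at 43.4, 38.2, 34.3 and 35.6 CPM in FOXP3-low and at 2.41, 2.45 and 2.08 CPM in FOXP3-high, where it rested on 22 to 28 counts a library. No library of either group came near the other group. Slc11a1 was 16.3-fold lower (log2 fold change -4.03 ± 0.13 SE, edgeR adjusted p = 9.82e-08). This placed it at percentile 1.46 of the fold changes of all genes tested. The 17 tested macrophage and monocyte genes had log2 fold changes from -5.31 (Ms4a7) to 0.99 (Ccr2), with a median of -3.95, and Mertk, at 0.16, did not pass. Ms4a7 had 279 counts in FOXP3-low and 4 in FOXP3-high, so that its fold change rests on those 4 counts. The 6 tested neutrophil genes ran from -4.57 (Cxcr2) to -0.15 (Mmp9, which did not pass), with a median of -3.90. Ms4a7, Ccr2, Mertk, Cxcr2 and Mmp9 were named after their values were seen. Summed neutrophil genes stood at 693 to 930 CPM in FOXP3-low against 39.6 to 90.3 CPM in FOXP3-high. Of the 8 neutrophil genes listed 6 were tested and 5 were lower, Ly6g had a count of 0 in all FOXP3-high libraries, S100a9, a neutrophil calcium-binding protein, was at 645 and 39.9 CPM, and Csf3r, the neutrophil growth factor receptor, at 105 and 4.86 CPM. The part of phagocyte RNA in the Slc11a1 difference was not tested.

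The ferritin chains had the highest levels per gene length of the 10 genes. Fth1 encodes the heavy chain, which oxidises ferrous iron for storage (ENSMUSG00000024661, chromosome 19, 9957962 to 9962456, plus strand). It stood at 1188, 1166, 1105 and 1052 CPM in FOXP3-low and 377, 403 and 354 CPM in FOXP3-high. The 3 FOXP3-high libraries were far below the FOXP3-low range. The mean of 1128 ± 61.8 CPM (SD, n = 4) against 378 ± 24.4 CPM (SD, n = 3) was a 2.99-fold decrease (log2 fold change -1.58 ± 0.0614 SE, edgeR adjusted p = 1.95e-07).

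Ftl1 encodes the light chain, which helps to form the mineral core (ENSMUSG00000050708, chromosome 7, 45107368 to 45109308, minus strand). It stood at 115, 128, 118 and 116 CPM in FOXP3-low and 60.5, 57.2 and 56.6 CPM in FOXP3-high. The groups did not overlap, and Ftl1 was 2.05-fold lower (log2 fold change -1.04 ± 0.0613 SE, edgeR adjusted p = 1.41e-06). Reads of ferritin are not all separated with certainty. Gm10252, on the opposite strand at Ftl1, held 34% as many counts (39.5 and 21 CPM), and Gm56125, on the same strand, 9.22% (10.9 and 5.35 CPM). The 3 rows named as Ftl1 or Ftl2 pseudogenes held at most 5.68% as many counts as Ftl1 in any library, and the 3 Fth1 pseudogene rows at most 0.332% as many as Fth1. Ferritin is made in most cells, in macrophages and dividing cells too, and the marker sums of both were lower in FOXP3-high, as given above. Their part in the ferritin differences was not tested.

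Ncoa4 encodes the receptor that delivers ferritin to the lysosome so that its iron is released (ENSMUSG00000056234, chromosome 14, 31881822 to 31899885, plus strand). It stood at 31, 24.8, 33.3 and 30.4 CPM in FOXP3-low and 22.4, 23.2 and 22 CPM in FOXP3-high. FOXP3-low replicate 2 was the lowest of its group and lay just above the highest FOXP3-high library. The decrease was the smallest of the 6, at 1.33-fold (log2 fold change -0.41 ± 0.11 SE, edgeR adjusted p = 0.010). Without both libraries numbered 3 it no longer passed (log2 fold change -0.34, edgeR adjusted p = 0.071).

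Slc40a1 encodes ferroportin, the exporter of iron from cells and a gene of iron-recycling macrophages (ENSMUSG00000025993, chromosome 1, 45947228 to 45965679, minus strand). It stood at 4.96, 4.64, 4.63 and 4.52 CPM in FOXP3-low, on 54 to 66 counts a library. In FOXP3-high it stood at 0.774, 1 and 0.472 CPM, on 9, 9 and 5 counts. The groups were far apart, and Slc40a1 was 6.24-fold lower (log2 fold change -2.64 ± 0.28 SE, edgeR adjusted p = 4.94e-05). The summed macrophage and monocyte level without Ccr2 moved the same way (log2 difference -2.99), and the part of macrophage RNA in the Slc40a1 difference was not tested.

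The iron regulatory proteins, which bind the hairpins shown above, did not pass the test. Ireb2 encodes IRP2, which is degraded when iron is plentiful (ENSMUSG00000032293, chromosome 9, 54771073 to 54819814, plus strand). It stood at 32.8, 34.4, 32.5 and 32.3 CPM in FOXP3-low and 36.5, 29.6 and 31.1 CPM in FOXP3-high, and the FOXP3-high libraries lay on both sides of the FOXP3-low range. The log2 fold change was -0.024 ± 0.086 SE (edgeR adjusted p = 0.84).

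Aco1 encodes IRP1, which is an aconitase when it holds an iron-sulfur cluster and an RNA-binding protein when it does not (ENSMUSG00000028405, chromosome 4, 40143081 to 40198338, plus strand). It stood at 8.69, 10.3, 11.4 and 12 CPM in FOXP3-low and 12, 10.2 and 8.02 CPM in FOXP3-high. Both groups spanned similar ranges, with a log2 fold change of -0.072 ± 0.18 SE (edgeR adjusted p = 0.77).

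Some calls depended on how the libraries were scaled. With 17 T cell genes as the basis of scaling in place of TMM, the median log2 fold change of all genes moved by -0.52. With that scaling 8 of the 10 genes were lower and 0 higher, where 57.9% of all genes tested were called, 53.6% lower and 4.33% higher. The 2 added were Ireb2 (log2 fold change -0.54, edgeR adjusted p = 0.0022) and Aco1 (-0.60, edgeR adjusted p = 0.020), both close to the median of all genes under that scaling, -0.51. Slc11a2 (-0.31, edgeR adjusted p = 0.23) and Steap3 (-0.28, edgeR adjusted p = 0.59) changed sign and did not pass. Tfrc (-1.25), Fth1 (-2.10), Ftl1 (-1.56), Ncoa4 (-0.94), Slc11a1 (-4.55) and Slc40a1 (-3.17) passed under both scalings.

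**Figure D2:**
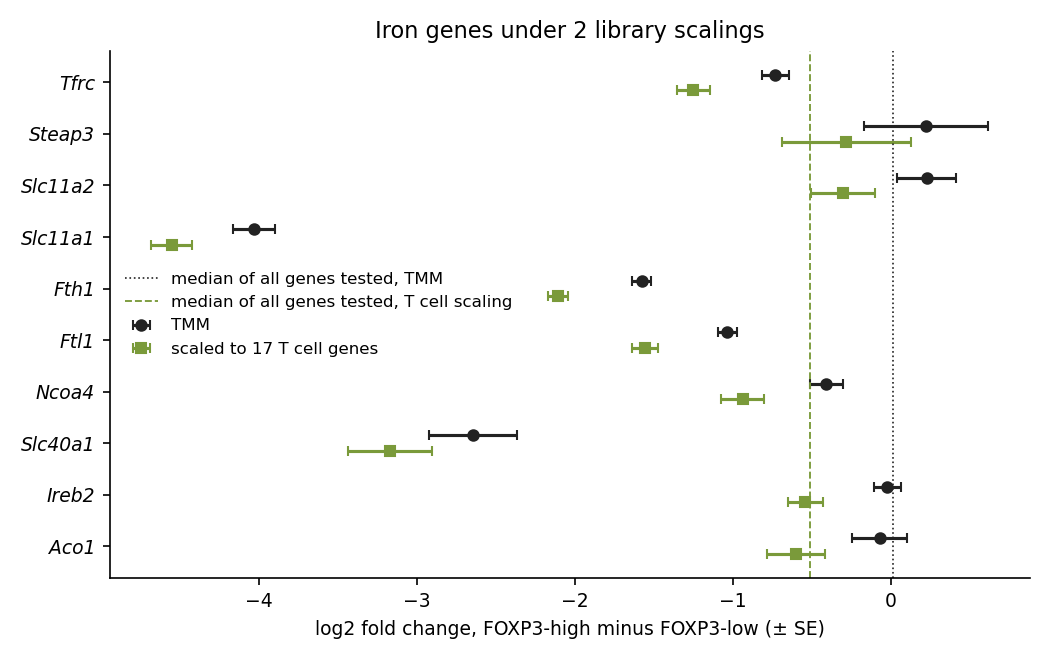
Log2 fold change (FOXP3-high minus FOXP3-low, ± SE) of each gene under TMM normalization (circles) and after scaling to 17 T cell genes (squares), with the median of all genes tested as a vertical line for each. Ireb2 and Aco1 lie near the median of all genes under both scalings, and Slc11a1 and Slc40a1 lie farthest below it.

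Ratios of 2 of these genes within a library do not depend on the scaling, but they do depend on the mix of sorted cells. Markers of macrophages, neutrophils and dividing cells differed between the groups, as given above, and their part in these ratios was not tested. The 5 ratios named here were compared by an exact permutation test (two-sided, over all 35 assignments of libraries to groups), which can give no p below 0.0286, and were adjusted over the 5. There were 0.0755, 0.087, 0.0878 and 0.105 Tfrc counts per Fth1 count in FOXP3-low and 0.172, 0.139 and 0.167 in FOXP3-high. Although Tfrc was lower in FOXP3-high, its ratio to Fth1 was higher there in 3 of 3 libraries, by 1.8-fold (difference of mean log2 ratios 0.85, exact permutation p = 0.0286, adjusted p = 0.0357).

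The ferritin chains also changed in ratio. There were 10.3, 9.12, 9.38 and 9.09 Fth1 counts per Ftl1 count in FOXP3-low and 6.22, 7.03 and 6.25 in FOXP3-high. The ratio was lower in all 3 FOXP3-high libraries, by 1.46-fold (log2 difference -0.54, exact permutation p = 0.0286, adjusted p = 0.0357).

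There were 7.17, 7.39, 4.78 and 4.92 Slc11a1 counts per Slc11a2 count in the FOXP3-low libraries, against 0.393, 0.294 and 0.273 in the FOXP3-high libraries, an 18.8-fold lower ratio (log2 difference -4.23, exact permutation p = 0.0286, adjusted p = 0.0357). The ratio of the exporter Slc40a1 to the receptor Tfrc was 0.0412 to 0.0557 in FOXP3-low against 0.00879 to 0.0188 in FOXP3-high, 3.72-fold lower (log2 difference -1.89, exact permutation p = 0.0286, adjusted p = 0.0357). For these 4 ratios the groups did not overlap and p was the smallest that the design allows. The ratio of Ireb2 to Aco1 was 3.76, 3.32, 2.83 and 2.67 in the FOXP3-low libraries and 3.02, 2.88 and 3.87 in the FOXP3-high libraries. Its log2 difference of 0.049 was smaller than the SD of either group, 0.22 and 0.23 (exact permutation p = 0.77).

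**Figure D3:**
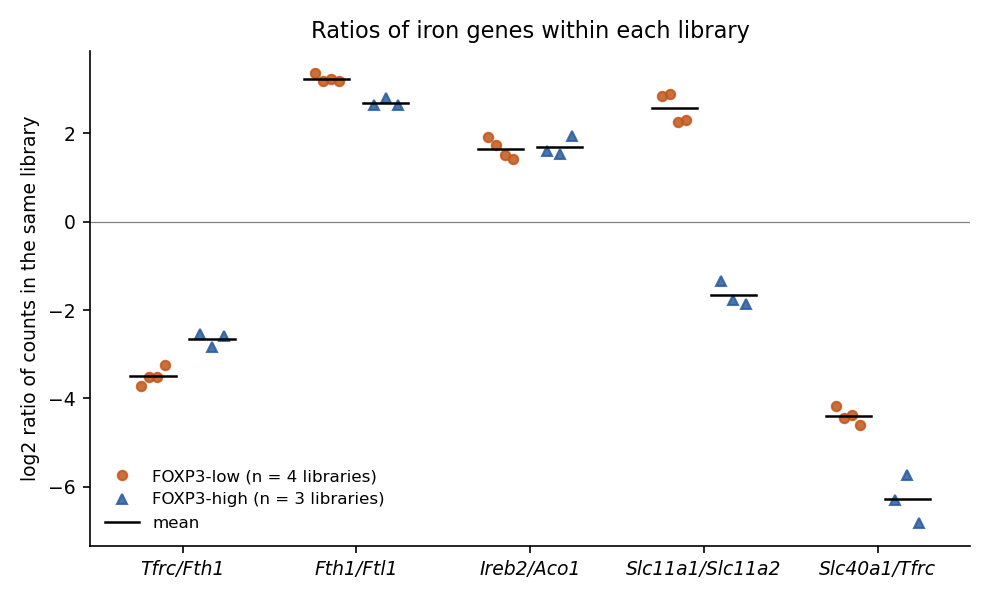
Log2 ratio of the counts of 2 genes in the same library, for 4 FOXP3-low (circles) and 3 FOXP3-high libraries (triangles), with the mean as a bar. The groups separate for 4 ratios and overlap for Ireb2/Aco1, and Tfrc/Fth1 is the only 1 of the 5 that separates with FOXP3-high above FOXP3-low.

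Divided by gene length, the levels of the 10 genes kept part of their order between groups. In CPM per kilobase of the deposited gene length, Fth1 led in FOXP3-low at 325 ± 17.8 (SD, n = 4), then Ftl1 at 88.9 ± 4.4, Tfrc at 16.1 ± 1.42 and Slc11a1 at 10.2 ± 1.09. Ireb2, Ncoa4 and Aco1 followed between 3.48 and 2.36 with ranges that overlapped from each to the next, and then came Slc11a2 at 1, Slc40a1 at 0.52 and Steap3 at 0.137. In FOXP3-high the first 3 were again Fth1 at 108.9 ± 7.03 (SD, n = 3), Ftl1 at 43.4 ± 1.57 and Tfrc at 9.7 ± 0.726. Slc11a1 moved from the fourth place to the eighth, at 0.624 ± 0.0552, below Slc11a2 at 1.17 ± 0.183. Slc40a1 came last in FOXP3-high at 0.0832 ± 0.0295, with a range that overlapped that of Steap3, and Ncoa4 and Aco1 also overlapped.

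Other genes were listed by role in iron and heme handling, in 8 lists with 88 entries, of which 76 were tested. Of these 29 were lower in FOXP3-high, 8 higher and 39 did not pass, next to 24.6% lower and 21.8% higher among all genes. With T cell gene scaling none of the 76 was higher (4.33% of all genes were) and 56 were lower (53.6% of all genes were). Without both libraries numbered 3 the higher genes numbered 5.

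Among the other iron uptake genes 6 of 8 tested were lower and 1 higher, with a median log2 fold change of -0.52. Lcn2, lipocalin 2, which binds iron-loaded siderophores, fell from 29.2 ± 2.6 to 2.59 ± 1.42 CPM (edgeR adjusted p = 6.80e-06). Hfe, a partner of the transferrin receptor, fell from 6.96 ± 1.71 to 1.42 ± 0.883 CPM. Snx3, which recycles the receptor from endosomes, fell from 118 ± 4.3 to 90.9 ± 2.51 CPM. Lcn2 and Hfe moved in the direction of the neutrophil and macrophage genes given above, and the part of those cells was not tested.

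Of 11 tested genes of heme uptake, breakdown and export, 8 were lower and 0 higher, with a median log2 fold change of -0.42. Among all genes tested 24.6% were lower and 21.8% higher. The count of 0 higher was the same at an unadjusted edgeR p under 0.05 and with DESeq2 and limma-voom, and DESeq2 gave 7 lower. Hmox1, heme oxygenase 1, which frees iron from heme, averaged 101 ± 15 CPM in FOXP3-low against 13.6 ± 4.07 CPM in FOXP3-high (-2.88 on the log2 scale, edgeR adjusted p = 3.32e-06). Lrp1, a receptor for heme bound to hemopexin, fell from 184 ± 9.71 to 23.7 ± 8.42 CPM, and Hp, haptoglobin, which binds free hemoglobin, from 33.1 ± 1.42 to 11.2 ± 1.03 CPM. Cd163, the macrophage receptor for haptoglobin bound to hemoglobin, named after its values were seen, had 157 counts in FOXP3-low and 1 in FOXP3-high, so that its fitted fold change rests on that 1 count. Hmox1, Lrp1, Hp and Cd163 moved in the direction of the neutrophil and macrophage genes given above, and the part of those cells was not tested.

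Of 13 heme synthesis genes 3 were lower and 3 higher, with a median of 0.040. Alas1, the first and rate-limiting enzyme, averaged 49.1 ± 2.85 CPM in FOXP3-low against 16.9 ± 1.41 CPM in FOXP3-high (-1.53 on the log2 scale, edgeR adjusted p = 1.18e-06). Tmem14c, a porphyrin transporter, fell from 17.8 ± 1.94 to 12.1 ± 1.61 CPM. The 3 higher genes were Ppox and Fech, enzymes of the last steps, and Slc25a38, a glycine importer (log2 fold changes 0.50, 0.31 and 0.37), and under T cell gene scaling their values were -0.027, -0.21 and -0.15. These 3 were named after their values were seen.

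Most genes of mitochondrial iron-sulfur cluster assembly did not pass the test with TMM. In mitochondrial iron import and assembly 4 of 18 tested genes were lower and 1 higher (median -0.19), against 24.6% and 21.8% of all genes. With T cell gene scaling 15 of these 18 were lower and 0 higher, and in cytosolic assembly 8 of 10 were lower and 0 higher. Of all genes tested, 53.6% were lower and 4.33% higher under that scaling. Hspa9, the mitochondrial chaperone that takes part in cluster transfer, averaged 549 ± 21.8 CPM in FOXP3-low against 376 ± 34.4 CPM in FOXP3-high (-0.55 on the log2 scale, edgeR adjusted p = 1.04e-04). Ndufab1, the acyl carrier protein, and Slc25a37, mitoferrin 1, which imports iron, fell by 0.40 and 0.52 on the log2 scale. In cytosolic assembly 4 of 10 tested genes were lower and 1 higher (median -0.24), led by Ciao2a, which matures the iron-sulfur cluster of IRP1 and was at 85.7 ± 5.06 and 53.4 ± 1.28 CPM (edgeR adjusted p = 2.98e-05), Ciapin1, an electron donor of the pathway (log2 fold change -0.47), and Glrx3, a glutaredoxin that carries clusters (-0.51).

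Genes that set the amount of IRP2 or the decay of Tfrc mRNA gave 1 lower and 1 higher of 6 (median -0.11). Fbxl5, the iron-sensing ubiquitin ligase subunit that marks IRP2 for degradation, averaged 130.1 ± 4.73 CPM in FOXP3-low against 62.4 ± 2.58 CPM in FOXP3-high (-1.06 ± 0.0574 SE on the log2 scale, edgeR adjusted p = 9.58e-07). Rc3h1, roquin 1, an RNA-decay factor, rose from 47.4 ± 3.39 to 63.3 ± 1.1 CPM with TMM (log2 fold change 0.42), but changed sign with T cell gene scaling (-0.11) and did not pass there. Ireb2, whose protein Fbxl5 acts on, did not pass, as given above.

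Of 5 other mRNAs known to carry an iron-responsive element 2 were lower and 0 higher (median -0.27), with the same counts at an unadjusted edgeR p under 0.05 and with DESeq2 and limma-voom. Cdc14a, a phosphatase, had a log2 fold change of -0.40 (edgeR adjusted p = 0.0019). The iron chaperones, export partners and hepcidin axis gave 1 lower and 1 higher of 5 tested (median 0.06). Pcbp1, which hands iron to ferritin, fell from 136 ± 3.58 to 107 ± 6.94 CPM, and Herc2, a ligase that acts on NCOA4, rose from 210 ± 8.67 to 299 ± 10.7 CPM with TMM (log2 fold change 0.51), with a value of -0.021 under T cell gene scaling. Hepcidin, Hamp, the hormone that removes ferroportin from the cell surface, was at 1.83 and 1.91 CPM and did not pass (named after its values were seen).

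**Figure D4:**
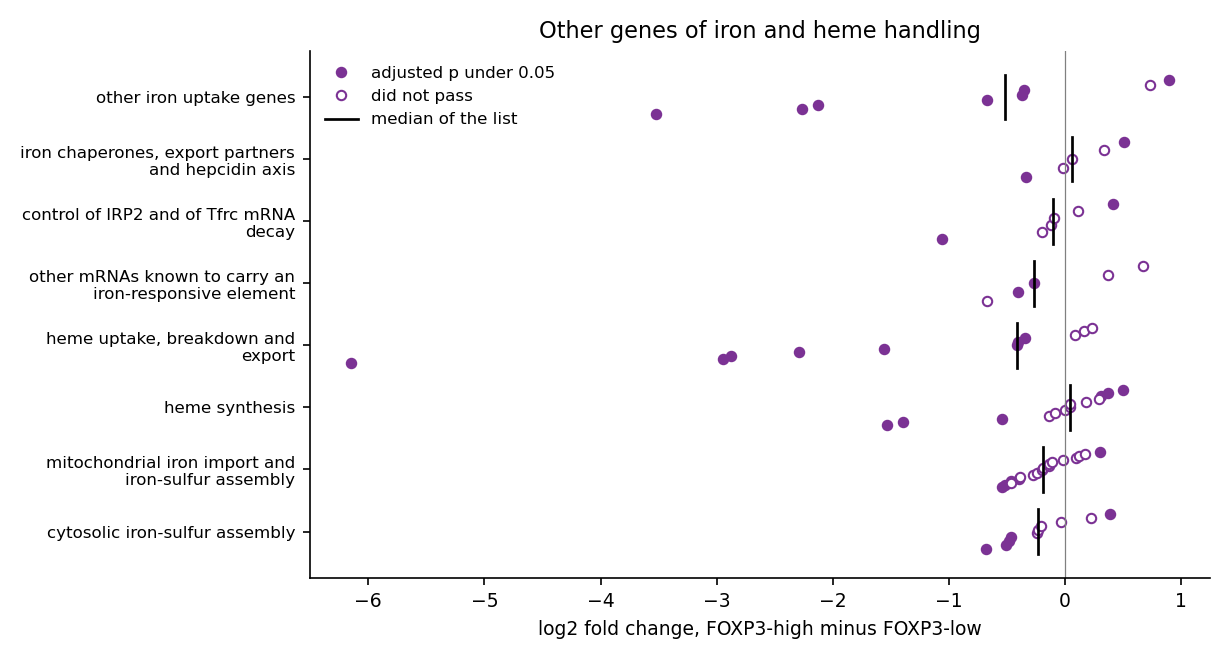
Log2 fold change (FOXP3-high minus FOXP3-low) of the 76 tested genes of 8 lists of iron and heme handling, with filled circles for an adjusted p under 0.05, open circles for the others and a bar for the median of each list. Filled circles below 0 number 29 and above 0 number 8, and the values below -2 are in the iron uptake and heme breakdown lists, where the farthest is Cd163 with 1 count in FOXP3-high.

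Genes most like 3 of the 10 across the 7 libraries were found by the Pearson correlation of log2 CPM, over 9645 or 9646 genes of at least 5 CPM. This is a description, since the 7 libraries fall into 2 groups and share scaling. For Tfrc they were Eid1 (r = 0.998), Mrps14 (0.997) and Smim36 (0.997), with 10 genes above 0.99. For Fth1 they were Taldo1 (0.999), Kifc5b (0.999) and H2az1 (0.999), with 243 genes above 0.99. For Slc40a1 they were Suv39h2 (0.999), Cfl1 (0.999) and Osgin2 (0.998), with 101 genes above 0.99.

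**Figure D5:**
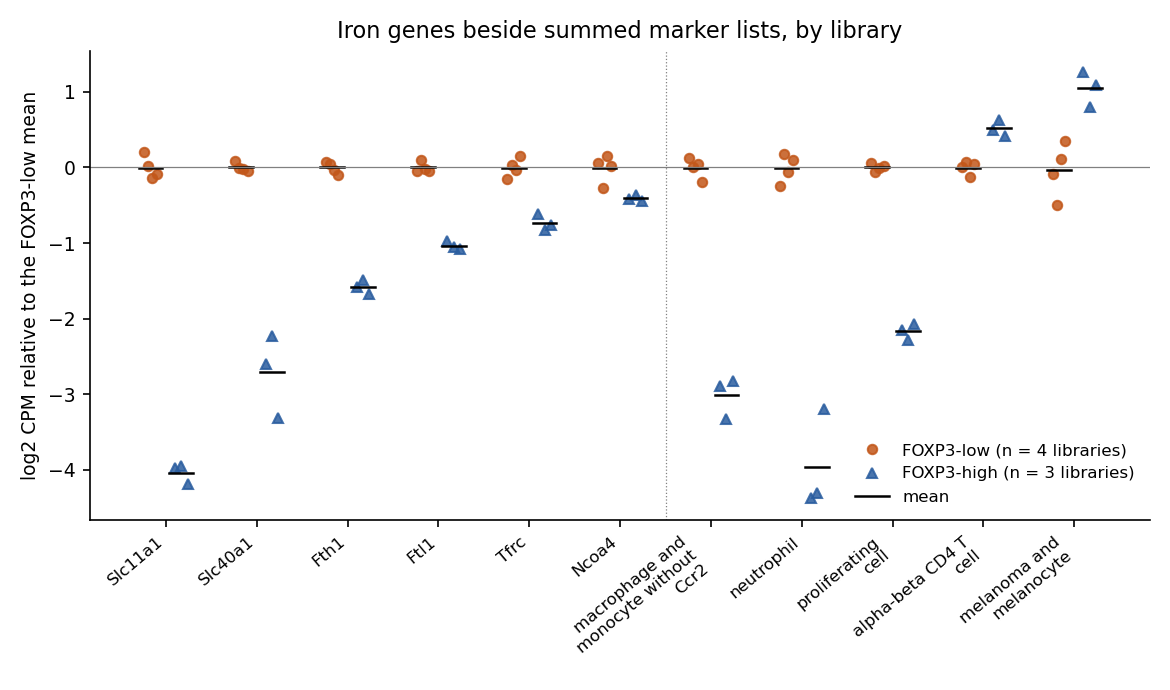
Log2 CPM relative to the FOXP3-low mean, for the 6 genes that were lower (left of the dotted line) and for the summed CPM of 5 marker lists (right), in 4 FOXP3-low (circles) and 3 FOXP3-high libraries (triangles), with the mean as a bar. Slc11a1 and the neutrophil sum lie farthest below 0 in FOXP3-high, Tfrc, Ncoa4, Ftl1 and Fth1 lie above the macrophage (without Ccr2), neutrophil and proliferation sums, and the T cell and melanoma sums lie above 0.

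The remaining marker lists did not share a direction. All 6 dendritic cell genes were lower in FOXP3-high with edgeR (Itgax at 32 and 2.68 CPM), but Zbtb46, at 28.9 and 24.1 CPM, lost its call under several alternatives (log2 fold changes -0.26 to -0.19). These were leaving out FOXP3-low replicate 1, 2 or 3, FOXP3-high replicate 2 or 3, or both libraries numbered 3, upper quartile factors, total counts and DESeq2. Lower too were 2 of 4 tested B and plasma cell genes (Igkc at 241 and 16.9 CPM, Jchain at 57 and 3.42 CPM). The Treg list gave 5 of 7 higher, or 2 higher and 2 lower with T cell gene scaling, with Ctla4 at 979 and 1596 CPM and Il2ra at 535 and 476 CPM, of which Il2ra did not pass (log2 fold change -0.17, edgeR adjusted p = 0.083). These counts include Foxp3 itself, higher under both scalings (log2 fold changes 0.97 and 0.44), which follows from the sort and tests nothing. Il2ra was lower with T cell gene scaling (-0.69, edgeR adjusted p = 5.6e-06), with no filter (-0.21, adjusted p = 0.013), with DESeq2 (-0.17, adjusted p = 0.047), without FOXP3-low replicate 3 (-0.21, edgeR adjusted p = 0.029) and without FOXP3-high replicate 2 (-0.23, edgeR adjusted p = 0.0096). Of 6 endothelial and 5 fibroblast genes tested, 0 passed with edgeR, DESeq2 or limma-voom or had an unadjusted p under 0.05. Pecam1 and Cdh5, junction proteins of vessels, were at 74.8 and 106 CPM and at 36.6 and 43.6 CPM. Pecam1 passed as higher without FOXP3-low replicate 3 (log2 fold change 0.84, edgeR adjusted p = 0.0099) and without both libraries numbered 3 (0.59, edgeR adjusted p = 0.014). The collagen genes Col3a1 and Col1a2 were at 80.5 and 78.1 CPM and at 35 and 40.3 CPM. In each group the summed levels of both lists were highest in replicate 3, at 302 and 333 CPM for endothelial genes and 432 and 292 CPM for fibroblast genes. Without both libraries 5 of the 10 iron genes were lower, Ncoa4 being the one that no longer passed.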

How the data were processed

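The members and all lists were chosen with earlier results of these data known. The deposited table holds whole-number read counts per gene and no normalized values, with a gene length column used here for levels per kilobase. Steps before it are named only in the submitters' processing notes: trimming software fastp 0.23.4, the aligner STAR 2.5.3a, the counter featureCounts, and builds GRCh38 and GRCm39. Strand, multiply mapped reads and molecular identifiers are not stated in the labels. Groups follow the sample titles. Every pair of replicates differed by more than counting noise (chi-square per gene 3.98 to 12.2).

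The counts went through edgeR 4.0.16 in R 4.3.3: filterByExpr (minimum count 10, total 15), TMM, and the quasi-likelihood test without a block over all 15838 genes kept, with a Benjamini-Hochberg threshold of 0.05. SE was taken as the size of the log2 fold change over the root of the F statistic. The edgeR step was run on simulated data as a check of the code. The simulation changed far fewer genes than were called here, so it does not test these calls. Log2 ratios and log2 CPM used a pseudocount of 0.5 (1 as an alternative for ratios). T cell scaling used the geometric mean count of the 17 genes of the T cell marker list. Of 196 listed symbols 195 matched 1 row; Ndor1 did not. Named were the 10 genes and Foxp3, in each of 8 context lists the called genes of lowest adjusted p (3 at most), the 2 most abundant of each of 11 cell type lists, and for Tfrc, Fth1 and Slc40a1 the 3 most correlated genes. Alternatives were DESeq2 size factors, upper quartile factors, total counts, no filter, at least 50 counts in 3 libraries, DESeq2 1.42.0, limma-voom (limma 3.58.1), each library left out, both libraries numbered 3 left out, a replicate block, ratio medians, and ferritin pseudogene counts added to the ratios. Hairpins came from GENCODE M21 transcripts (GRCm38), so only transcript positions are given. Values of some genes that this rule names are not reported here.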

Additional observations from a re-analysis of the deposited data

How the results depend on the processing

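Tfrc, Slc11a1, Fth1, Ftl1 and Slc40a1 stayed lower with an adjusted p under 0.05 in all 17 alternatives run, and Ncoa4 in 16 of 17. The count of lower iron genes was 6 in each alternative except T cell gene scaling (8) and leaving out both libraries numbered 3 (5). The number of changed genes ran from 6392 to 9178. The replicate number as a block gave 7029 changed genes and 6 lower iron genes, and changed no call among the 10. Same-numbered libraries deviated together only in part (r = -0.0954, 0.124 and 0.568), and unlike-numbered pairs gave -0.582 to 0.37. The highest value of all pairs was that of the libraries numbered 3. The numbers were not taken to pair the samples. Steap3 had too few counts to be tested with the stricter filter and without FOXP3-low replicate 2.

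Some values changed sign. T cell gene scaling moves all values down by construction (median shift -0.52), and for the other settings the cause was not tested. Ireb2 became 0.025 with upper quartile factors, 0.046 with total counts and ran from -0.14 to 0.062 with each library left out. Aco1 ran from -0.25 to 0.072 with each library left out and was 0.11 without both libraries numbered 3. With T cell gene scaling Steap3 became -0.28, Slc11a2 -0.31, Herc2 -0.021, Rc3h1 -0.11, Cd4 -0.14, Pecam1 -0.024, Cdh5 -0.26 and Col1a2 -0.32. Cd4 is among the 17 genes used for that scaling, so its value there tests nothing. Cdh5 became -0.60 with limma-voom and -0.17 with the replicate block, Pecam1 passed with the block (0.43, edgeR adjusted p = 0.048) as well as without FOXP3-low replicate 3 and without both libraries numbered 3, and Col3a1 became 0.021 with upper quartile factors, 0.043 with total counts and 0.60 without both libraries numbered 3. With each library left out Cdh5 ran from -0.65 to 1.21, Col3a1 from -0.79 to 1.33 and Col1a2 from -0.44 to 1.22, the highest values being those without FOXP3-low replicate 3.

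With group medians in place of means the log2 differences were 0.93 for Tfrc/Fth1, -0.57 for Fth1/Ftl1, -4.34 for Slc11a1/Slc11a2 and -1.90 for Slc40a1/Tfrc, with exact permutation p from 0.0571 to 0.114, and Ireb2/Aco1 became -0.022. With each library left out, where the fewer samples allow no p under 0.05, these ratios ran from 0.77 to 0.94, from -0.60 to -0.50, from -4.39 to -4.13 and from -2.17 to -1.63, and Ireb2/Aco1 from -0.081 to 0.14. Depth limits Steap3 (5 to 12 counts a library) and Slc40a1 in FOXP3-high (5 to 9 counts).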
